A study of Mus musculus with 4 samples.

Results

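Tbx15 encodes a T-box transcription factor of mesenchymal tissues, and its open chromatin was examined here in adipose progenitors, the precursor cells of fat that can form adipocytes. The members were all ATAC-seq peaks overlapping chromosome 3 from 98950000 to 99250000 on mouse build mm9, a window of 300 kb with the Tbx15 gene body at about 99.044 to 99.158 Mb. The window held 33 of the 198854 peaks in the 4 deposited lists, and these merged into 19 of the 83319 regions of the series. The window was set by position around a gene chosen by its known role with results of these data in view, and its members were selected on the presence of a peak, listed with their scores. The number, presence and score of the peaks in each library are therefore given as a description, without a test.

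The progenitors were freshly isolated, without further treatment, from the subcutaneous (SAT) or the visceral (VAT) fat of C57BL/6 mice aged 16 weeks, and each depot has 2 libraries, called SAT 1, SAT 2, VAT 1 and VAT 2. In ATAC-seq a transposase cuts accessible DNA, so that a peak marks a stretch of open chromatin. The labels name no separate animals for the 2 libraries of a depot, and the markers used to isolate the cells are not given there. Apart from Tbx15 itself, the cell type and depot were not checked against marker genes, since no gene annotation of build mm9 was used. The peaks at Tbx15 did not follow the depot labels, which were taken as given. These labels may be wrong for some libraries, which was not tested, and every SAT or VAT value below depends on them.

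T-box factors bind DNA through a shared domain and control patterning and cell identity. Tbx15 shapes limb and skeletal mesenchyme and skin in the mouse, where its loss causes the droopy ear phenotype, and it acts in skeletal muscle and fat as well. In mouse and human fat its RNA is known to be higher in subcutaneous than in intra-abdominal depots, which makes it a common marker of depot identity. In RefSeq the nearest protein-coding genes on the same chromosome are Wars2, which encodes a mitochondrial tryptophan-tRNA ligase, at lower coordinates and Spag17, which encodes a protein of motile cilia, at higher coordinates.

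Under the depot labels as given, peaks around Tbx15 divided the libraries by replicate number and not by depot. SAT 1 had 14 peaks in the window and SAT 2 had 0, whereas VAT 1 had 17 and VAT 2 had 2. The mean was 7.0 ± 9.9 peaks in SAT and 9.5 ± 10.61 in VAT (SD, n = 2 each), so the depot difference of -2.5 peaks was well below the spread within either depot. The libraries numbered 1 both had many peaks and those numbered 2 had few or none, in both depots. The SAT and the VAT counts overlapped. With 2 libraries against 2 the smallest p of an exact permutation test is 0.333.

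**Figure D1:**
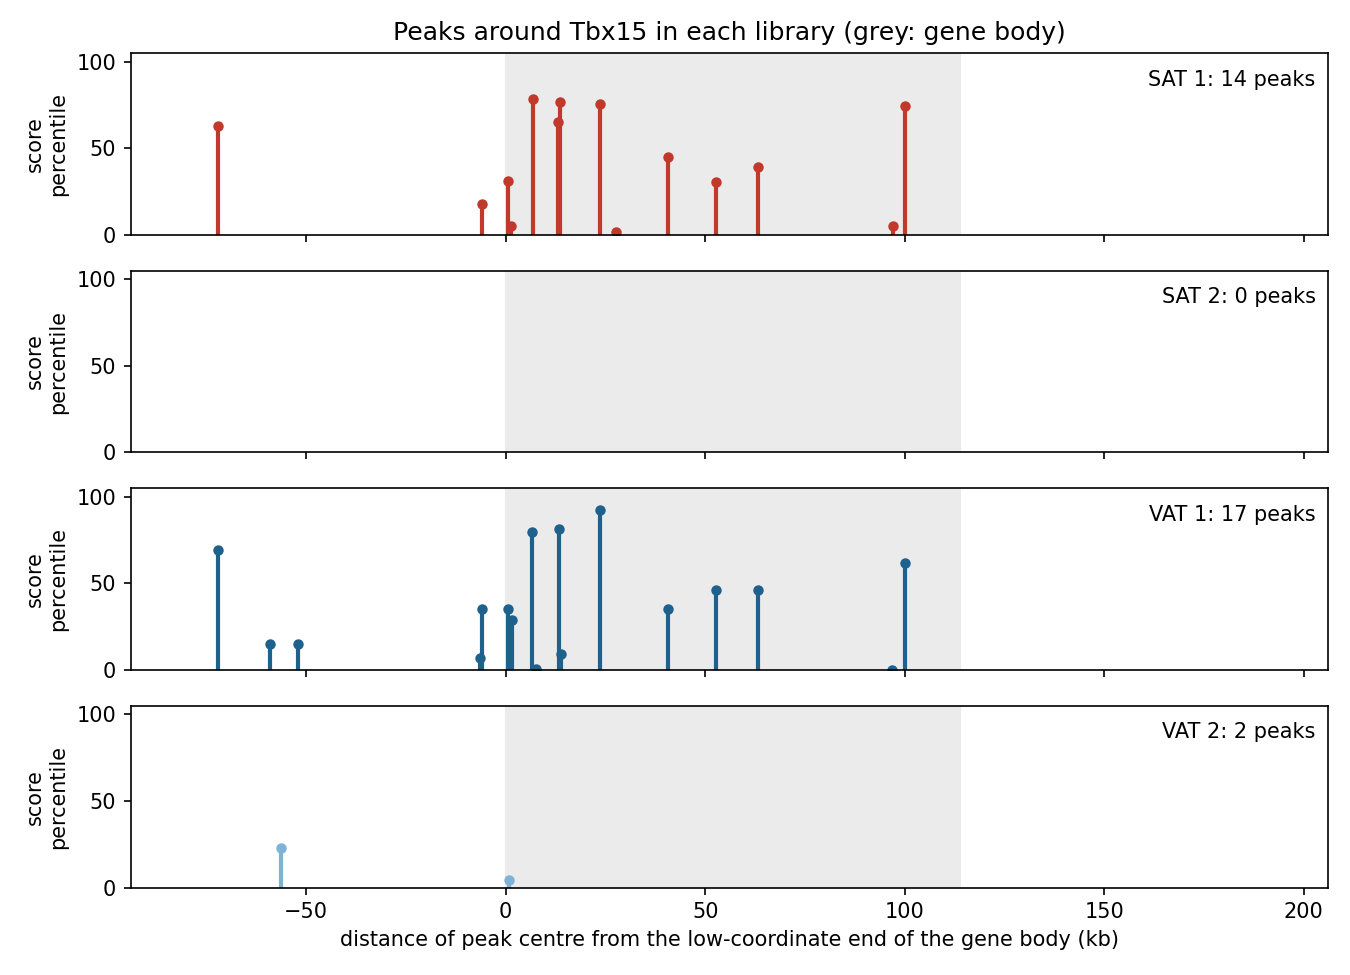
Peaks of each library across the 300 kb window, by the distance of the peak centre from the low-coordinate end of the gene body (kb), with the percentile of the peak's score within its own list as height; the grey band is the gene body. SAT 1 (14 peaks) and VAT 1 (17 peaks) share 12 of the 18 regions in which either has a peak, SAT 2 shows none and VAT 2 shows 2 low ones.

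SAT 2 had by far the shortest list, with 22845 peaks, and SAT 1 had 56823. VAT 1 had 56907, and VAT 2 had the longest list, with 62279. With equal-length lists the window held 6 peaks in SAT 1, 0 in SAT 2, 5 in VAT 1 and 0 in VAT 2. The part of list length as a cause of these counts was not tested. Per 10000 peaks of the list, the window held 2.46 peaks in SAT 1 and 0 in SAT 2, and 2.99 in VAT 1 and 0.321 in VAT 2. Read counts are not part of the lists, the depth of each library is thus unknown, and chromatin without a called peak may still be open. Fewer open cells and less open chromatin per cell cannot be told apart in these bulk libraries.

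Of the 19 regions, 11 (57.9%) had peaks in both SAT 1 and VAT 1 but none in SAT 2 or VAT 2, a pattern of 9.37% of all merged regions. Over the genome, 17.9% of the regions shared by SAT 1 and VAT 1 lacked SAT 2 and VAT 2 peaks, beside 11 of 12 in the window. Since the window was chosen with these counts in view, its shares are a description only. Another 5 regions had a peak in VAT 1 alone (8.58% of all regions), 1 in SAT 1 alone (7.84%) and 1 in VAT 2 alone (19.6%). The remaining region had peaks in SAT 1, VAT 1 and VAT 2 (19.5% of all regions). No region of the window had a peak in all 4 libraries, a pattern seen in 23.2% of all merged regions. SAT 2 had a peak in 0 of the 19 regions, beside 21340 of the 83319 in the series. None was restricted to both SAT libraries (0.110% of all regions), to both VAT libraries (4.60%) or to SAT 2 and VAT 2 (0.652%). None was in SAT 2 alone (0.360%), in SAT 1 and VAT 2 only (4.93%) or in SAT 2 and VAT 1 only (0.0960%).

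The region at the low-coordinate end of the gene body was the one reached by 3 libraries. It spanned 99044468 to 99044936, about 0.7 kb inside the boundary, and was modest in each. The score, a whole number given to each peak by the authors' peak caller, was 71 in SAT 1, 80 in VAT 1 and 35 in VAT 2, and SAT 2 had no peak. As a percentile within the library's own list, these stood at 30.9 in SAT 1, 35.4 in VAT 1 and 4.37 in VAT 2. The VAT 2 peak overlapped that of VAT 1 but began 21 bp beyond the end of the SAT 1 peak, so SAT 1 and VAT 2 were joined here only through VAT 1. Next to it, at 99045364 to 99045562, a further peak had scores of 38 in SAT 1 and 71 in VAT 1, with none in the other two libraries.

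The strongest chromatin lay inside the gene, with region centres 6.72 to 23.6 kb from its low-coordinate end. The region at 99050539 to 99050894 had scores of 194 in SAT 1 and 222 in VAT 1, at the percentiles of 78.7 and 79.8. The region at 99057002 to 99057770 was the widest of the window, at 769 bp, and held a pair of SAT 1 peaks with scores of 137 and 183 under a single VAT 1 peak of 234. The higher SAT 1 peak stood at the percentile of 76.5 and the VAT 1 peak at 81.6. The region at 99067372 to 99067843 held the highest peak of VAT 1, with a score of 340 at the percentile of 92.3, and a SAT 1 peak of 177 at the percentile of 75.6. SAT 2 and VAT 2 had no peak at any of these 3 positions. In both SAT 1 and VAT 1, all 3 ranked above the region at the low-coordinate end of the gene. Scores are printed as deposited, and regions are called strong or weak by their percentiles within each list. The 3 regions of the gene body found in a single library were weak, at percentiles of 8.99 or lower, with scores of 30 in SAT 1 at 99071649 to 99071737, and in VAT 1 of 28 at 99051631 to 99051769 and 46 at 99057868 to 99057965.

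Farther along the gene the peaks were spaced more widely. Regions at 99084511 to 99084787, 99096556 to 99096799 and 99107093 to 99107289 had SAT 1 scores of 90, 70 and 81, and VAT 1 scores of 80, 99 and 99. Their percentiles lay between 30.5 and 45.2 in SAT 1 and between 35.4 and 46.1 in VAT 1. A gap of 33.6 kb without a peak in any library followed. Near the high-coordinate end, a weak region at 99140896 to 99141111 had scores of 38 in SAT 1 and 26 in VAT 1, at the percentiles of 5.17 and 0.28. The region nearest to that end, at 99144063 to 99144254, lay 13.8 kb inside it and was strong, with scores of 173 in SAT 1 and 140 in VAT 1, at the percentiles of 74.7 and 61.8. No library had a peak in the 92 kb of the window beyond the gene.

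On the low-coordinate side, 6 regions lay in the 94 kb before the gene. The strongest was at 98971729 to 98971962, 72.15 kb from the gene body, with scores of 130 in SAT 1 and 169 in VAT 1, at the percentiles of 63.0 and 69.5. A second shared region at 99038030 to 99038231, close to the gene, had scores of 54 in SAT 1 and 80 in VAT 1. The only peak of VAT 2 in this stretch, at 98987702 to 98987859 with a score of 60, met no peak of another library. The other 3 regions were in VAT 1 alone, with scores of 54, 54 and 45. Density was 11.4 regions per 100 kb in the gene body, 6.38 before it and 0 beyond it. Wars2, the nearest protein-coding gene on the low-coordinate side, has a RefSeq length of 81124 bp. Its place on build mm9 was not used, so regions inside Wars2 were not told apart from those between the genes.

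Because the lists of SAT 1 and VAT 1 are nearly equal in length, their percentiles can be set side by side for the 12 regions that both hold. The percentile was higher in SAT 1 in 3 regions and higher in VAT 1 in 9, with a median difference of -5.75 points for SAT 1 minus VAT 1 and a range from -23.88 to 12.87. Over the 43569 regions of the genome with a peak in both libraries the median difference was -0.04, and SAT 1 was higher in 49.8%. The order of the 12 regions was much alike in these libraries, with a Spearman's rho of 0.901 across regions, which share libraries and are not independent replicates, beside 0.798 for all 43569. Their covered bases overlapped with a Jaccard index of 0.530 in the window, beside 0.605 over the genome.

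**Figure D2:**
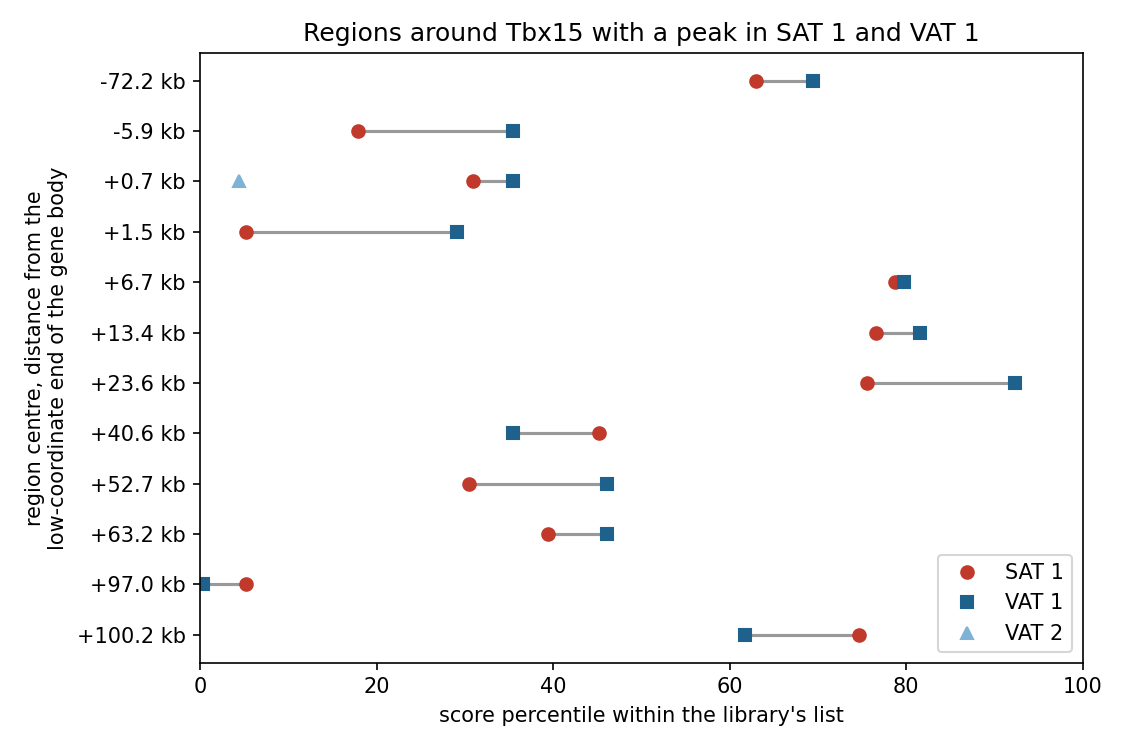
Score percentile within each library's list (x axis) for the 12 regions with a peak in SAT 1 and VAT 1, ordered from low to high coordinates by distance from the low-coordinate end of the gene body. Circles are SAT 1, squares VAT 1 and the triangle VAT 2; VAT 1 lies to the right of SAT 1 in 9 of the 12 regions.

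On the low-coordinate side, the region nearest to the window was open in every library. Just outside the window, at 98944860 to 98945678, all 4 lists had a peak, with scores of 335 in SAT 1, 178 in SAT 2, 513 in VAT 1 and 474 in VAT 2. These stood at the percentiles of 94.4, 85.1, 98.8 and 97.5, so that a region 4.32 to 4.54 kb from the window was among the stronger peaks of each list. On the other side, the next peak lay 39.6 kb from the window in SAT 1, 405.3 kb in SAT 2, 14.6 kb in VAT 1 and 376.8 kb in VAT 2, and was weak in each, at percentiles of 10.9 or lower.

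Across 1 Mb on each side of the window, SAT 1 had 37 peaks and SAT 2 had 11, while VAT 1 had 42 and VAT 2 had 33. Per 10000 peaks of the list this was 6.51 in SAT 1, 4.82 in SAT 2, 7.38 in VAT 1 and 5.30 in VAT 2. With both flanks pooled, the libraries thus lay closer together than in the window. The pooled value joins unlike flanks. VAT 2 had 21 peaks on the low-coordinate flank and 12 on the high-coordinate flank, whereas each other library had more on the high-coordinate flank. Of the 59 merged regions in the flanks, 8 (13.6%) had peaks in SAT 1 and VAT 1 alone, and 8 (13.6%) in all 4 libraries. On the high-coordinate flank alone the order was again by replicate number, with 23 peaks in SAT 1 and 6 in SAT 2, and 27 in VAT 1 and 12 in VAT 2. On the low-coordinate flank VAT 2 had the most, with 21 peaks, against 14 in SAT 1, 5 in SAT 2 and 15 in VAT 1. These counts of a single flank are not scaled to list length. The list of SAT 2 is by far the shortest, and that of VAT 2 is the longest.

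**Figure D3:**
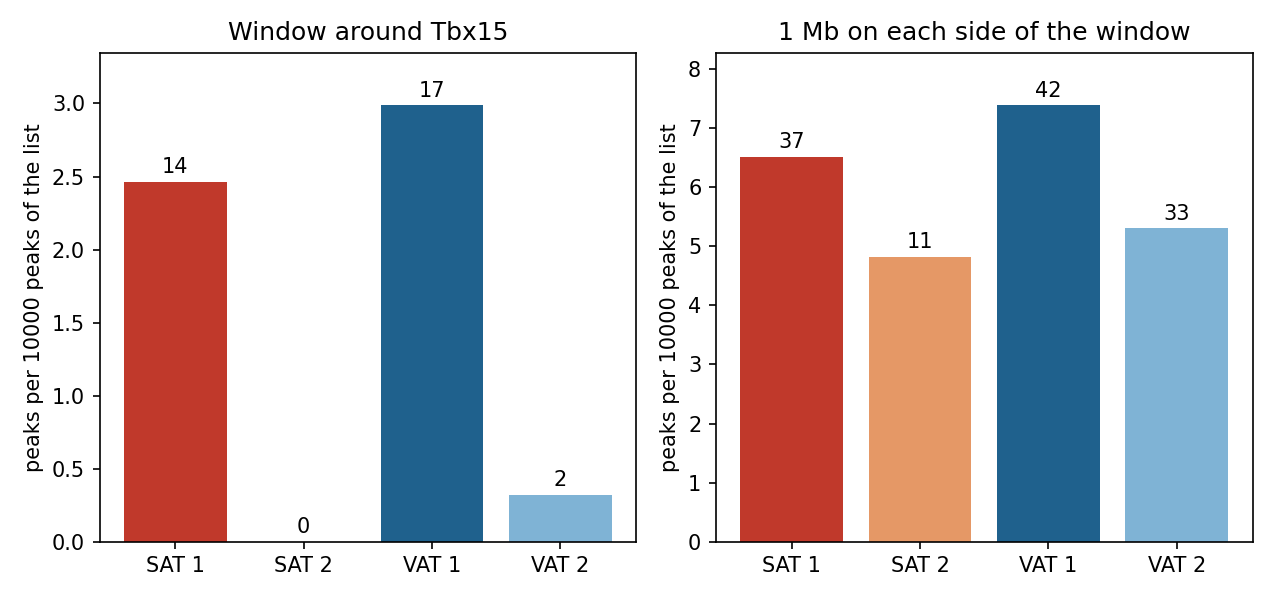
Peaks per 10000 peaks of the library's list in the window around Tbx15 (left) and in the 1 Mb on each side of it (right), 1 bar per library, with the number of peaks above each bar. In the window SAT 2 (0 peaks) and VAT 2 (2 peaks) are far below SAT 1 and VAT 1, while with both flanks pooled the bars lie between 4.82 and 7.38.

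For scale, the genome was divided into stretches of the same length, of which 7285 held a peak and did not touch the window. The window held 14 peaks in SAT 1 and 0 in SAT 2, where the median stretch held 6 and 2. It held 17 peaks in VAT 1 and 2 in VAT 2, where the median stretch held 6 in each. The window was chosen with its peaks known, so its place among the stretches is a description of these 4 lists and supports nothing further.

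**Figure D4:**
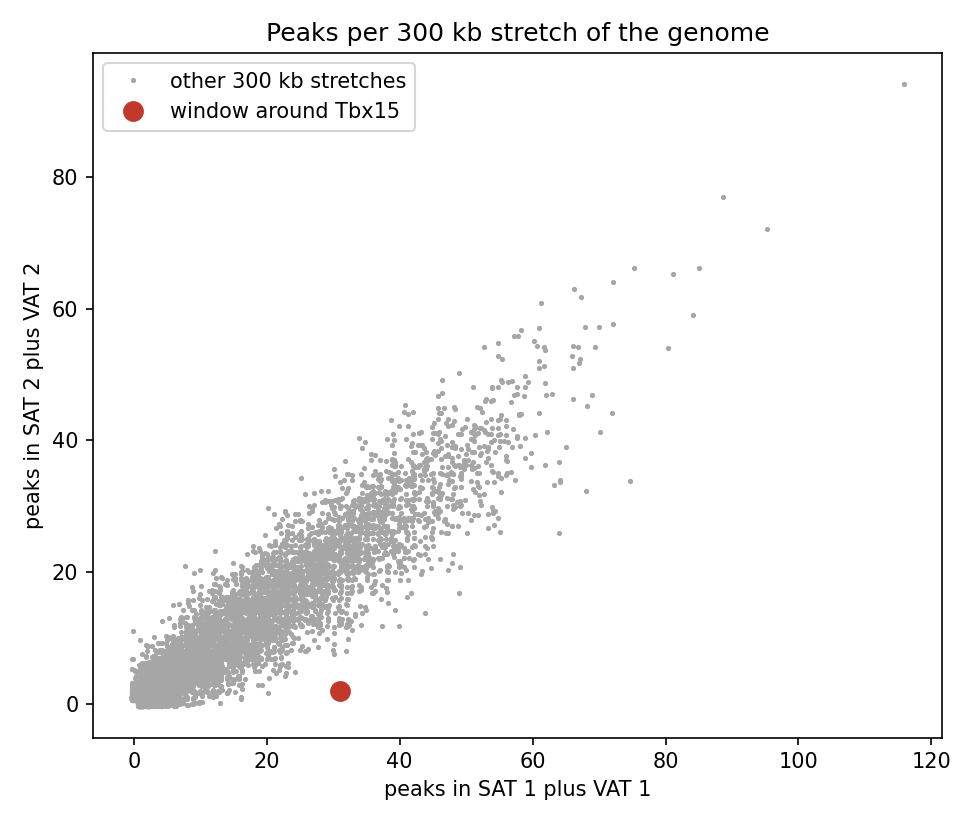
Peaks in SAT 2 plus VAT 2 (y axis) against peaks in SAT 1 plus VAT 1 (x axis) for 7285 stretches of 300 kb of the genome (grey points, moved slightly at random so that they do not hide each other) and for the window around Tbx15 (red). The window has 31 peaks in SAT 1 plus VAT 1 and 2 in SAT 2 plus VAT 2; the medians of the stretches are 12 and 8.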

How the data were processed

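Per the labels, fresh cells were lysed in detergent, treated with Nextera transposase and amplified by PCR. Per the submitters' processing notes, Bowtie2, MACS2 and build mm9 were used; for versions, options and duplicates the entry is: not given in the sources used here. The authors called peaks per library, and replicates were not pooled. Their deposited score per peak is a whole number from 20 upwards without a stated scale, so scores are printed as deposited and peaks were ranked only within a list, by percentile (mid-rank for ties). Any overlap of 1 bp or more joined peaks into a region, open in each library that has a peak there. The window and the gene body are those given for the locus, and every region is accounted for; named are regions shared by 1 replicate number, the 3 highest-scoring peaks per library, and the region nearest each gene end. Members, window and comparisons were chosen with earlier results of these data known. Gene names came from RefSeq GRCm38.p6, whose coordinates were not used; it gives Tbx15 a length of 113913 bp, beside about 114 kb here. Merging was tested on simulated data and against bedtools 2.31.1. Python 3.11.15, numpy 2.4.6, pandas 2.3.3 and scipy 1.17.1 were used. Positions are 1-based.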

Additional observations from a re-analysis of the deposited data

How the results depend on the processing

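The number of merged regions (19) was 5 in the top 50% of each list, 5 with equal-length lists and 1 with the top 10000 peaks, a setting added after seeing the data; these settings keep fewer peaks by construction. Regions found only in SAT 1 and VAT 1 (11 of 19) numbered 7 of 26 with 50% reciprocal overlap, where fewer peaks join and the share is lower, 5 in the top 50%, 5 with equal-length lists and 0 with the top 10000 peaks, where the 1 remaining region was in VAT 1. No setting that kept all 4 libraries gave a region in all of them, or in both libraries of 1 depot and neither of the other. Leaving out a library gave 0 to 1 and 1 to 5 such regions, since fewer libraries are then needed. Leaving out a library gave 12 to 16 regions in the remaining libraries of 1 replicate number and in none of the other. That count could only stay at 11 or rise, for the same reason. The depot difference of -2.5 peaks lay between -10.0 and 5.0 when a library was left out: it was -9.5 without SAT 1, 4.5 without SAT 2, 5.0 without VAT 1 and -10.0 without VAT 2, and 0.5 with equal-length lists. With a replicate block it was -2.5, from -3 for SAT 1 minus VAT 1 and -2 for SAT 2 minus VAT 2. With 1 library per depot and replicate number this value equals the unblocked one by construction. The labels do not say that a number marks a shared animal or day. Planned percentile differences over regions in all 4 libraries could not be given, as there were none. Depth is unknown and limits what a missing peak means.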
